A study of Mus musculus with 6 samples.

Results

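The imprinted genes Gnas, Nnat, Blcap, H13 and Mcts2 lie in 3 clusters on the distal part of mouse chromosome 2, and they are described here by the ZFP57 and KAP1 peaks found around them. The members were chosen by position: a peak counted if it shared at least 1 bp with the body of 1 of the 5 genes or with the 20 kb on either side (mm9 assembly, GENCODE M1 annotation). As Mcts2 lies inside H13 and Nnat inside Blcap, the 5 genes gave 3 windows, H13-Mcts2 (79.2 kb), Blcap-Nnat (54.9 kb) and Gnas (102 kb). They held 28 of the 123233 peaks in the 4 lists of the series.

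The peaks were obtained by chromatin immunoprecipitation and sequencing (ChIP-seq) of 2 hybrid embryonic stem cell (ESC) lines, grown without feeder cells. They come from reciprocal crosses of the strains C57BL/6 (B6) and JF1, with JF1 as the mother of JB1 and B6 as the mother of BJ1, and both are male, with no treatment given in the labels. Each line was precipitated once with an antibody against ZFP57 (Abcam ab45341) and once with an antibody against KAP1 (Abcam ab10483), and the 2 input libraries have no peak list and were not used here. Each direction of the cross is therefore a single line with 1 library per antibody, no difference could be set against replicate error, and no test was made. The lists held 10667 ZFP57 peaks in JB1, 1318 ZFP57 peaks in BJ1, 38713 KAP1 peaks in JB1 and 72535 KAP1 peaks in BJ1. They give positions on a grid of 150 bp with no height, score or read number, so that read depth is unknown, and depth, enrichment, fewer bound cells and weaker binding per cell cannot be told apart when a line lacks a peak. The ESC label could not be checked against marker genes, as expression was not among these data, and the lists do not say which allele was precipitated.

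Imprinted genes are expressed from the allele of a single parent, and their expression is set by imprinting control regions (ICRs), which carry DNA methylation inherited from either the egg or the sperm. ZFP57 is a zinc-finger protein that binds the methylated allele of ICRs through the hexanucleotide TGCCGC, and KAP1 (also called TRIM28) is the co-repressor that it recruits, together with enzymes that methylate histone H3 and DNA. Nnat encodes neuronatin, a small membrane protein, and is expressed from the paternal allele within an intron of Blcap, whose name stands for bladder cancer-associated protein. Mcts2 is a retrogene that is also expressed from the paternal allele, and its promoter lies in an intron of H13, which encodes signal peptide peptidase. Gnas is a complex locus with several first exons: that of Nesp is used on the maternal allele, those of Gnasxl and exon 1A on the paternal allele, and that of the stimulatory G protein alpha subunit on both alleles in most tissues. Nespas is a paternally expressed antisense transcript that starts between the first exons of Nesp and Gnasxl.

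The sequences under the peaks are shown first, since the same short motifs recur at the bound sites. All are given on the forward strand of mm9, 5′ to 3′, and were read from the B6 reference, as the JF1 sequence was not analysed here. Capitals mark the ZFP57 motif TGCCGC, its variant GGCCGC and their copies on the reverse strand, which read GCGGCA and GCGGCC in the printed strand. The ZFP57 peak over the Nnat start held a pair of reverse copies before the gene and a run of 3 forward copies behind the first coding exon, both shown because they are close groups of the kind called a cluster here, with motif starts less than 38 bp apart.
Nnat upstream pair, chr2:157385495-157385554: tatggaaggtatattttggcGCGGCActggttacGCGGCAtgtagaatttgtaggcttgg
Nnat run of 3, chr2:157386053-157386154: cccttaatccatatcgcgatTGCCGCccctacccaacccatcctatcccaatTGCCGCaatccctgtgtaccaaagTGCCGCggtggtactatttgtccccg
Nnat coding variant, chr2:157385915-157385944: tttcggaaccatGGCCGCagtggcagcagc

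At the ZFP57 peak between Nespas and Gnasxl, a forward and a reverse TGCCGC overlapped by 2 bases at their ends, a single copy followed, and a second inverted pair lay in an exon of the transcript Gnas-008.
Nespas-Gnasxl overlapping pair, chr2:174121378-174121427: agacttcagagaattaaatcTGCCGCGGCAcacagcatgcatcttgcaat
Nespas-Gnasxl single copy, chr2:174121440-174121469: atggtgcataatTGCCGCagcctgctttat
Nespas-Gnasxl exon pair, chr2:174121595-174121624: tgcgcgTGCCGCgggcgcGCGGCAaaacaa

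The coding sequence of the Gnasxl first exon, bound by ZFP57 in JB1, held single forward copies and a reverse pair of the variant, whereas the 3′ end of Gnas held separate copies only.
Gnasxl exon first copy, chr2:174125135-174125164: ccgcgcagcagcTGCCGCccgggcagcctc
Gnasxl exon next copy, chr2:174125189-174125218: ccggtcagcctcTGCCGCccccagcagggc
Gnasxl exon variant pair, chr2:174125250-174125307: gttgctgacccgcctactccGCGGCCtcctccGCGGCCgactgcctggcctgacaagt
Gnas 3′ end variant, chr2:174172067-174172096: agtaagcttaagGCGGCCtacagaagaaaa
Gnas 3′ end motif, chr2:174172255-174172284: gctctttgatttGCGGCAagtgggtcccag

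The stretch before the Mcts2 start, which ends at the base ahead of the annotated transcript, is shown because it held a run of 3 forward TGCCGC under a KAP1 peak of JB1 and under no ZFP57 peak.
Mcts2 upstream, chr2:152512586-152512883: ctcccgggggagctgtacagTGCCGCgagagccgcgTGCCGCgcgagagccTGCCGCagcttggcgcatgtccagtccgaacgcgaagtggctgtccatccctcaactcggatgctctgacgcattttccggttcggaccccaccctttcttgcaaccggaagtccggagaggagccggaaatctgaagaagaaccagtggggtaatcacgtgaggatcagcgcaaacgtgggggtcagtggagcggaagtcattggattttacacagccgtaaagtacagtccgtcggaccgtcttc

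ZFP57 was found at Nnat and at Gnas but not at H13-Mcts2. In JB1, the ZFP57 list had 1 peak in the Blcap-Nnat window and 3 in the Gnas window. In BJ1, it had 1 and 2 peaks, respectively. KAP1 was present in all 3 windows of both lines, with 1, 3 and 3 peaks in JB1 and 4, 4 and 6 peaks in BJ1 at H13-Mcts2, Blcap-Nnat and Gnas. The difference between the lines lay largely in the flanks: within the gene bodies alone, KAP1 of BJ1 had 7 peaks in place of 14, and KAP1 of JB1 had 5 in place of 7. A site bound in all 4 lists, meaning a ZFP57 peak of JB1 that overlapped a ZFP57 peak of BJ1 and a KAP1 peak of each line, was found once at Nnat and at 2 places in Gnas. As background, a ZFP57 peak of JB1 was present in the windows, made in the same way, of 15.9% of all 37273 annotated genes and of 3 of the 5 members. For ZFP57 of BJ1 the share of all genes was 3.43%, again with 3 of 5 members. KAP1 was so widespread that 43.3% of all genes in JB1 and 73.1% in BJ1 had a peak, and it was present at 5 of 5 members in each line, in windows that overlap. Within the gene bodies alone, KAP1 of BJ1 was present at 4 of 5 members, the exception being Mcts2, against 27.8% of all genes. A site of all 4 lists was present at 1.71% of all genes (639) and at Blcap, Nnat and Gnas, the first 2 of which share the site. At least 2 such sites were found at 0.105% of all genes (39), and Gnas was 1 of them. Gnas is a long gene, and among the 4188 genes of at least its length the number was 18 (0.43%, exact Clopper-Pearson 95% confidence interval 0.255–0.678%, which covers counting error only).

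**Figure D1:**
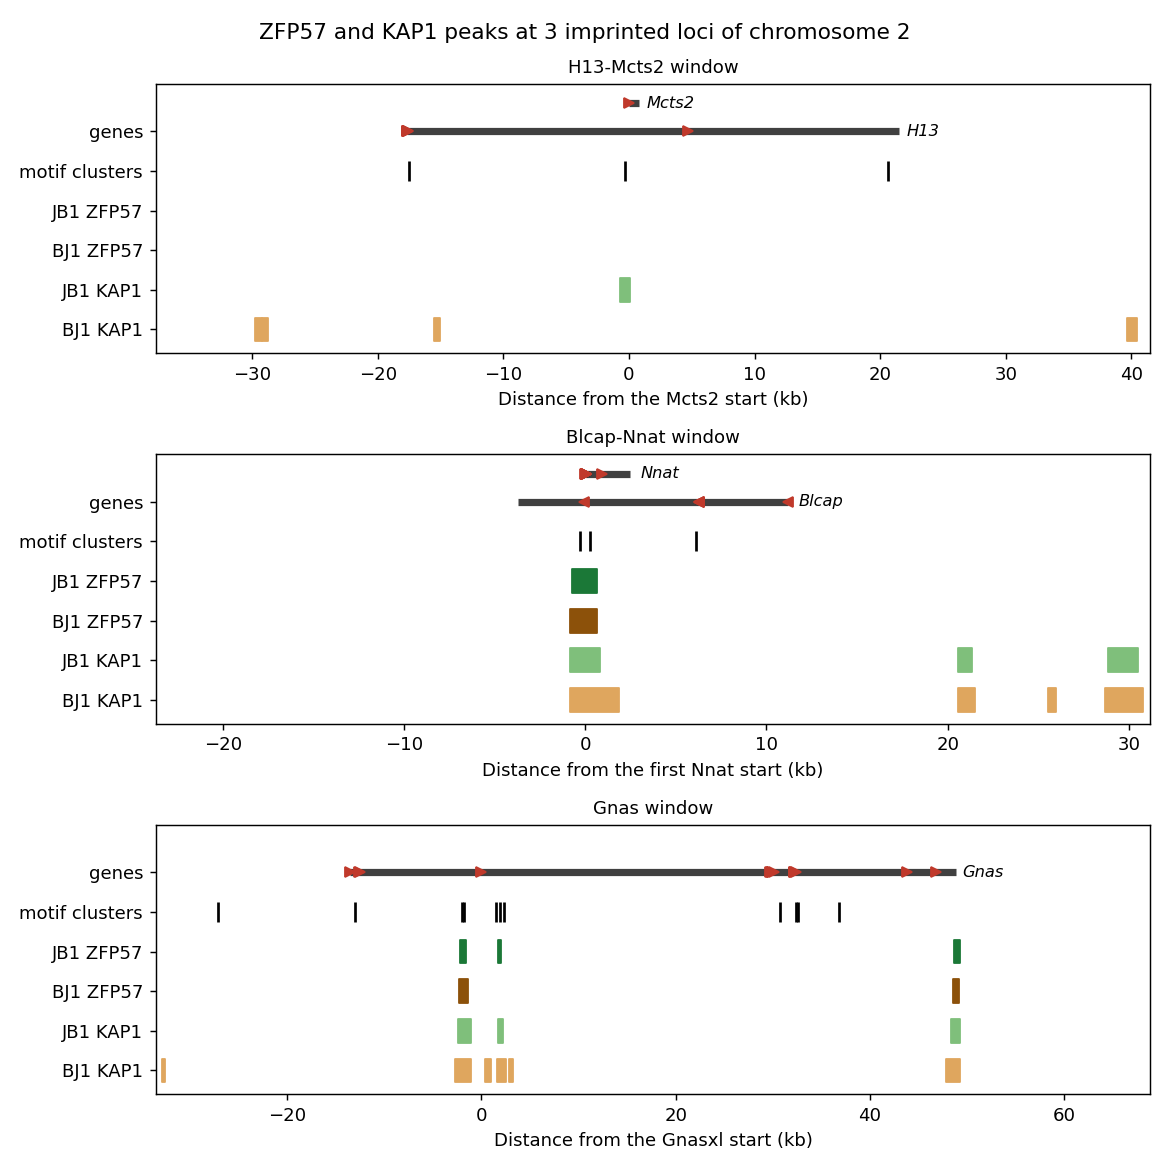
ZFP57 and KAP1 peaks of both lines (coloured boxes, 1 row per list) in the H13-Mcts2, Blcap-Nnat and Gnas windows, with the gene bodies as dark bars, annotated transcript starts as red arrowheads pointing in the direction of transcription, and clusters of motifs as black ticks. The horizontal axes give the distance in kb from the Mcts2 start, the first Nnat start and the Gnasxl start. The ZFP57 rows are empty in the H13-Mcts2 window, hold 1 box each at the Nnat start, and hold 3 boxes in JB1 and 2 in BJ1 in the Gnas window.

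The peaks covered little of each window. ZFP57 peaks took up 2850 bp in JB1 and 3000 bp in BJ1 over the 3 windows together, or 1.2% and 1.27% of their length. On the whole of chromosome 2, ZFP57 covered 0.176% in JB1 and 0.0207% in BJ1. The covered length at these genes was thus alike in both lines, although the JB1 list was by far the longer. KAP1 covered 7500 bp in JB1 (3.17%) and 13800 bp in BJ1 (5.83%), compared with 1.1% and 1.91% of chromosome 2. Blcap-Nnat was the most densely covered window in every list, with 2.46% and 2.73% under ZFP57 and 7.38% and 11.2% under KAP1 of JB1 and BJ1.

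At Nnat (mm9 chr2:157385814-157388258, forward strand), a single ZFP57 peak covered the promoter, the first exon and its coding sequence in both lines. It was at chr2:157385101-157386450 in JB1 (1350 bp) and at chr2:157384951-157386450 in BJ1 (1500 bp), so that the end was the same and the starts differed by 150 bp, or 1 step of the grid. Both peaks were wide for their lists: 2.38% of the JB1 ZFP57 peaks (254) and 1.59% of the BJ1 ZFP57 peaks (21) were at least as wide. KAP1 lay around them at chr2:157384951-157386600 in JB1 (1650 bp) and at chr2:157384951-157387650 in BJ1 (2700 bp). The KAP1 peak of BJ1 thus reached 1050 bp further into Nnat than that of JB1, while both began at the same base. Of the 10 annotated start positions of Nnat, 9 were inside the ZFP57 peak of both lines, and the exception, that of Nnat-004, lay 295 bp beyond its end and was reached by KAP1 of BJ1 only.

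Blcap (chr2:157382098-157397010, reverse strand) shared this site, because Nnat is nested in it. Of its 5 start positions, that of the short transcript Blcap-004 at 157385743 was inside the peaks of all 4 lists, just before Nnat and on the opposite strand. The others, at 157392067 to 157397010, were 5617 to 10560 bp from ZFP57 in both lines and had no peak of either protein over them. Near the distal starts, a motif cluster at 157391933-157391940 carried no peak of any list. The primer pair that the study designed for the allele-specific ChIP of this locus, BlcapRTF (ctttgggtgggagagggc) and BlcapRTR (cgggcggggacaaatagta), matched chromosome 2 once each and enclosed chr2:157386014-157386158, a stretch of 145 bp. It lies inside the ZFP57 peaks of both lines and spans the run of 3 TGCCGC printed above.

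The Gnas locus (chr2:174109821-174172245, forward strand) held 3 separate ZFP57 sites in JB1, 2 of which were also bound in BJ1. The first lay between the starts of Nespas and Gnasxl, where the maternally methylated ICR of the cluster is known to be. Its ZFP57 peak was at chr2:174121201-174121800 in JB1 (600 bp) and at chr2:174121051-174121950 in BJ1 (900 bp), with the same centre in both lines. In width it was ordinary for the JB1 list, of which 36.1% were at least as wide, and among the wider peaks of the BJ1 list (6.6%, 87 peaks). The peak began 264 bp in JB1 and 114 bp in BJ1 from the start of the antisense transcript Nespas-002 (174120937), and ended 1560 and 1410 bp before the start of Gnasxl (174123360). It lies in introns of the Nesp transcripts and over an exon of Gnas-008. KAP1 extended from 174120901 to 174122250 in JB1 (1350 bp) and from 174120601 to 174122250 in BJ1 (1650 bp), and covered the Nespas-002 start in both lines and also the Nespas-001 start in BJ1. Neither ZFP57 nor KAP1 of this site reached the Gnasxl start.

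Inside the first coding exon of Gnasxl, 1741 bp after its start, ZFP57 was found in JB1 only. This peak, at chr2:174125101-174125400, measured 300 bp, the narrowest width in the list, which 3381 of the 10667 peaks had. KAP1 was nevertheless present there in both lines, at chr2:174125101-174125550 in JB1 (450 bp) and at chr2:174124951-174125850 in BJ1 (900 bp). BJ1 had further KAP1 peaks in the same exon region on either side, at chr2:174123751-174124350 (600 bp) and at chr2:174126151-174126600 (450 bp), with no counterpart in JB1. In each line the Gnasxl region had peaks of KAP1, and in JB1 it also had a ZFP57 peak. A lack of ZFP57 in BJ1 was the rule for the JB1 list, of which 5.40% overlapped a BJ1 ZFP57 peak, and the difference was not tested.

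The third site was at the other end of the gene. ZFP57 peaks at chr2:174172051-174172650 in JB1 and at chr2:174171901-174172500 in BJ1, both of 600 bp, shared 450 bp, or 75% of each. They lay over the last exon and 3′ untranslated region of Gnas, over the start of the antisense gene AF085738 (chr2:174155820-174172213), and beyond the annotated end of Gnas. KAP1 extended from 174171751 in JB1 (900 bp) and from 174171151 in BJ1 (1500 bp) to 174172650. This was the site with the fewest CpG dinucleotides, 8 in 750 bp of the joined ZFP57 peaks, with a ratio of observed to expected CpG of 0.229, compared with 0.65 at the Nespas-Gnasxl site, 0.769 at the Gnasxl exon and 0.817 at Nnat. The nearest start of Gnas itself was that of Gnas-012, 1900 bp from ZFP57 in JB1 and 1750 bp in BJ1.

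Gnas itself had no peak over a start, as none of its 16 annotated start positions lay in a peak of any list. The Nesp starts, at 174109821 to 174110859, were 10342 to 11380 bp from the nearest ZFP57 peak of JB1. Around exon 1A, which is known as a second maternally methylated control region of the locus, 6 starts were annotated between 174153071 and 174153524. They were 18527 to 18980 bp from the nearest ZFP57 peak in JB1, 18377 to 18830 bp in BJ1, and at least 17627 bp from any KAP1 peak, which in each case was the one at the 3′ end of the gene. The sequence within 1 kb of these starts (2454 bp) was rich in CpG, with 167 CpG and a ratio of observed to expected CpG of 0.805. It also held a cluster at 174154087-174154124 that was in no peak, like most clusters of chromosome 2. Of the 1285 clusters there, 3.89% were in a ZFP57 peak and 12.3% in KAP1 peaks only. The starts of the G protein alpha subunit transcripts, at 174155507 to 174155788, were likewise free of peaks, the nearest ZFP57 peak of JB1 being 16263 to 16544 bp away.

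H13 (chr2:152495197-152534406) and Mcts2 (chr2:152512884-152513676), both on the forward strand, differed from the other members in that neither line had a ZFP57 peak in their window. The ZFP57 peak nearest to the Mcts2 start was 476184 bp away in JB1 and 1707667 bp away in BJ1. The promoter of Mcts2 was occupied by KAP1 in JB1 only, by a peak of 750 bp at chr2:152512201-152512950 that covered the start of Mcts2 and the 3′ end of the short transcript H13-006. Its width was close to the middle of the JB1 list, of which 45.7% were at least as wide. BJ1 had no KAP1 peak there, and its nearest, in an intron of H13 at chr2:152497351-152497800, was 15084 bp from the Mcts2 start. The Mcts2 peak was the 1 KAP1 peak of JB1 in the 3 windows without a counterpart in BJ1. The other 6 of 7 overlapped KAP1 of BJ1, near the 85.9% of the whole JB1 list, so no line difference is read from it. The sequence of the Mcts2 peak had the highest ratio of observed to expected CpG of the sites described here, 1.03 with 52 CpG. The 6 start positions of H13 had no peak over them in any list. A motif cluster 116 bp from the start of H13-003 was in no peak, like most clusters of chromosome 2.

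The edges of the ZFP57 peaks found in both lines differed by at most 150 bp, 1 step of the grid. The JB1 ZFP57 peak lay wholly inside that of BJ1 at Nnat, where it made up 90% of the BJ1 peak, and at Nespas-Gnasxl, where it made up 66.7%. The centres of the ZFP57 peaks were 75 bp apart at Nnat, 0 bp at Nespas-Gnasxl and 150 bp at the 3′ end of Gnas. Every ZFP57 peak was wholly inside a KAP1 peak of its own line, as were 97.2% (JB1) and 97.7% (BJ1) of all ZFP57 peaks that overlapped KAP1 of their line. KAP1 was wider by a factor of 1.22 at Nnat, 2.25 at Nespas-Gnasxl and 1.5 at both other sites in JB1, and of 1.8 at Nnat, 1.83 at Nespas-Gnasxl and 2.5 at the 3′ end of Gnas in BJ1. At all 4 sites the KAP1 peak of BJ1 was wider than that of JB1 and contained it, which held for 45.1% of all JB1 KAP1 peaks that overlapped KAP1 of BJ1.

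**Figure D2:**
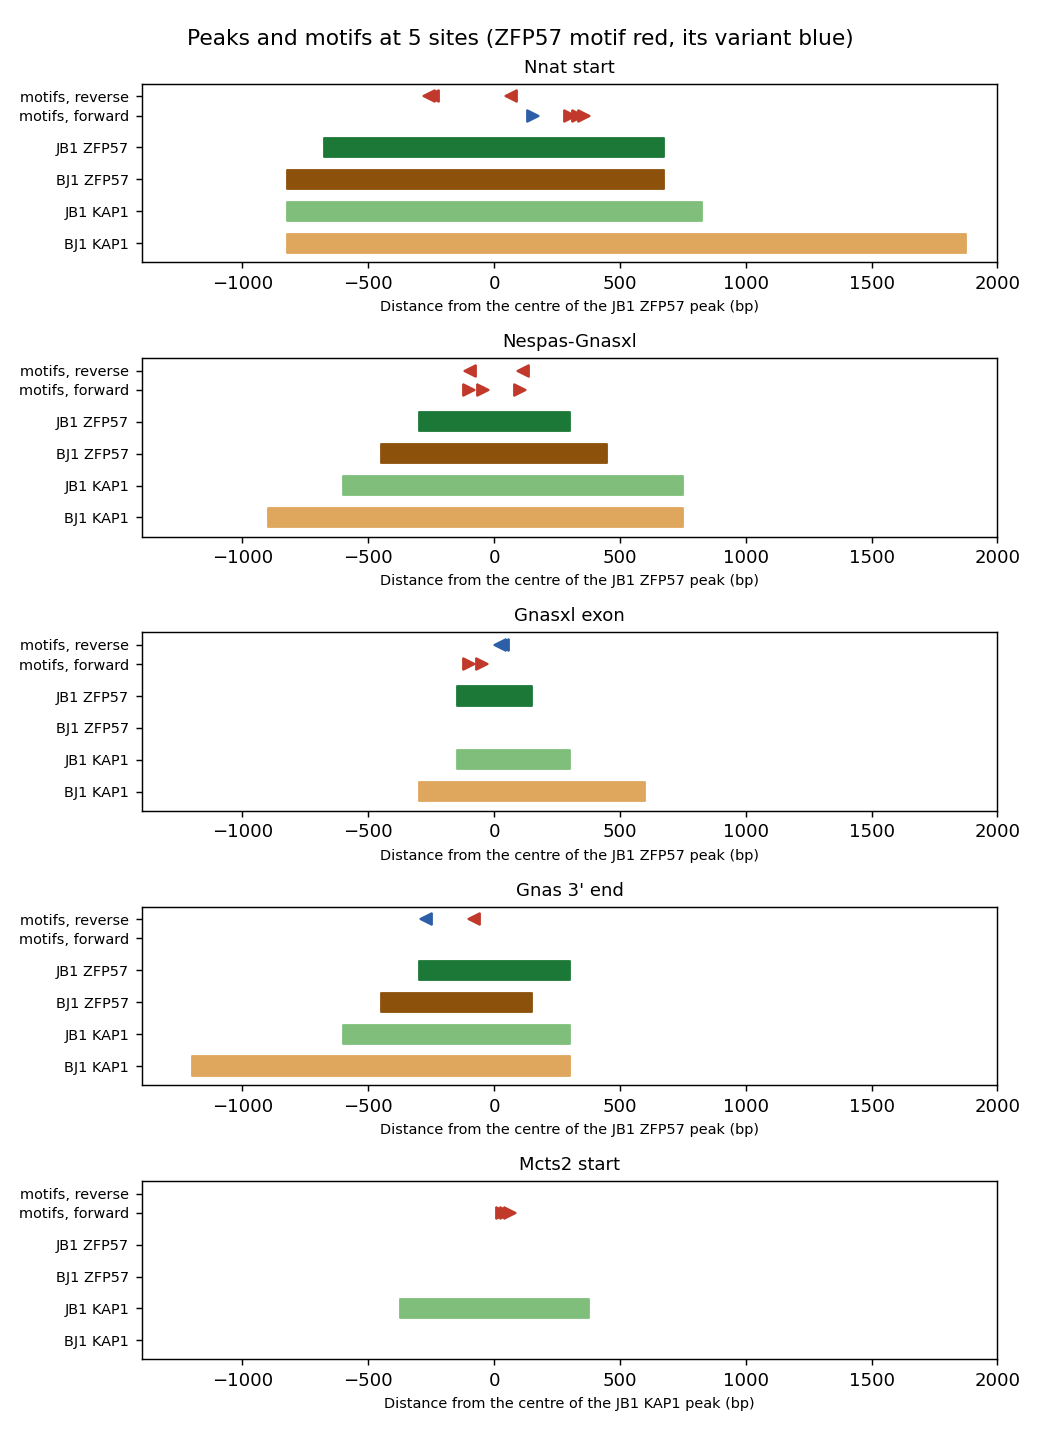
Extent of the peaks of each list (boxes, 1 row per list) at the Nnat start, Nespas-Gnasxl, Gnasxl exon, Gnas 3′ end and Mcts2 start, with the motifs of the forward and reverse strands inside the ZFP57 peaks (or inside the KAP1 peak at Mcts2) as arrowheads, TGCCGC in red and GGCCGC in blue. The horizontal axis is the distance in bp from the centre of the JB1 ZFP57 peak, or of the JB1 KAP1 peak at Mcts2. Every ZFP57 box lies within the KAP1 box of its line.

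The overlaps of the peaks of these genes are given beside those of the whole lists, as a description. Of the 4 JB1 ZFP57 peaks, 3 overlapped ZFP57 of BJ1 (75%, Clopper-Pearson 95% confidence interval 19.4–99.4%), compared with 5.40% of all JB1 ZFP57 peaks. In the other direction, all 3 BJ1 ZFP57 peaks overlapped ZFP57 of JB1 (29.2–100%), beside 43.6% of the list. KAP1 of both lines was present at 4 of 4 ZFP57 peaks of JB1 (39.8–100%), against 57.5% of the list, and at 3 of 3 of BJ1 (29.2–100%), against 51.4%. With 3 or 4 peaks, the intervals would hold the list shares of 43.6%, 57.5% and 51.4% whatever the count, so nothing is read from them. KAP1 peaks of the windows were found in the other line at 6 of 7 JB1 peaks against 85.9% of the list, and at 6 of 14 BJ1 peaks (17.7–71.1%) against 45.3%. They coincided with ZFP57 of their own line at 4 of 7 in JB1 (18.4–90.1%) against 14.1% of the list, and at 3 of 14 in BJ1 (4.66–50.8%) against 1.00%. The peaks of a locus lie close together and are not independent, so that no test is drawn from these intervals.

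**Figure D3:**
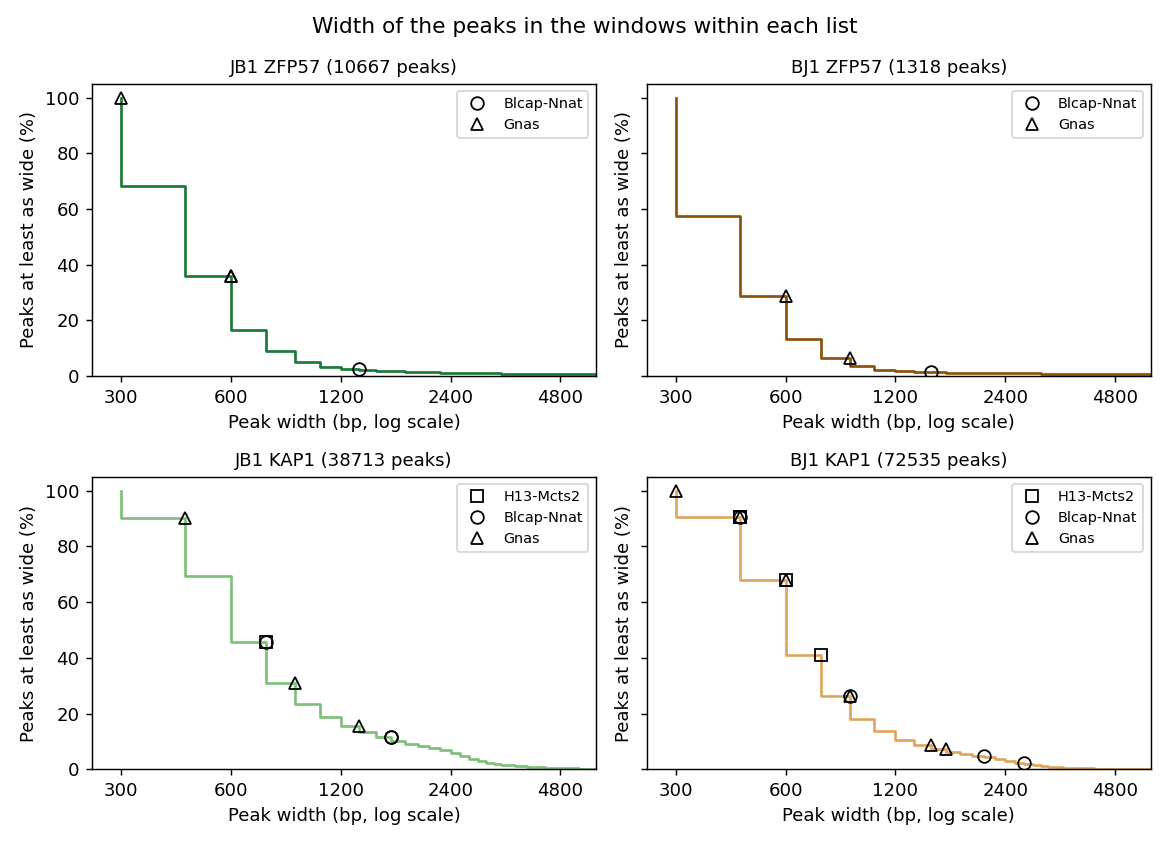
Share of the peaks of each list (vertical axis, percent) that are at least as wide as a given width (horizontal axis, bp on a log scale), as a stepped line, with the peaks of the H13-Mcts2 (squares), Blcap-Nnat (circles) and Gnas (triangles) windows marked on it. The ZFP57 peak at Nnat stands in the lower tail of both ZFP57 lists, at 2.38% in JB1 and 1.59% in BJ1, whereas the Gnasxl exon peak is at the left end of the JB1 list.

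KAP1 also bound these windows away from ZFP57. In JB1, 3 of its 7 peaks overlapped no ZFP57 peak of either line, and in BJ1, 10 of 14, compared with 85.5% and 92.4% of the whole KAP1 lists. Beside the Mcts2 peak, JB1 had such peaks beyond the 5′ end of Blcap, at chr2:157406401-157407150 (750 bp) and chr2:157414651-157416300 (1650 bp). Both were present in BJ1, at chr2:157406401-157407300 (900 bp) and chr2:157414501-157416600 (2100 bp), and the latter was the widest KAP1 peak of the 3 windows outside the ZFP57 sites. These peaks were intergenic, and none of them held a TGCCGC or GGCCGC. In the H13-Mcts2 window, the widest KAP1 peak of BJ1 was at chr2:152552551-152553300 (750 bp), 8687 bp from the start of Id1, an inhibitor of basic helix-loop-helix factors. BJ1 also had a pair of KAP1 peaks that touched each other, at chr2:152483101-152483700 and chr2:152483701-152484150, beside 1700030C14Rik. The KAP1 peaks without ZFP57 were 750 to 1650 bp wide in JB1 and 300 to 2100 bp in BJ1. A motif was found in all 4 KAP1 peaks with ZFP57 in each line, but in 1 of 3 without ZFP57 in JB1, which was the Mcts2 peak, and in 2 of 10 in BJ1. In the whole lists, 91.9% (JB1) and 92.5% (BJ1) of the KAP1 peaks with ZFP57 held a motif, so that the counts of the windows were near these shares. By comparison, 30.5% (JB1) and 22.7% (BJ1) of the KAP1 peaks without ZFP57 held a motif, and 2.91% and 2.11% held a cluster.

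The motif letters were searched on both strands as exact matches, and the 2 motifs cannot start at the same base. The ZFP57 peak at Nnat held 6 TGCCGC and 1 GGCCGC in both lines, 3 on the reverse strand followed by 4 on the forward strand. Their starts ran from 157385515 to 157386129 in steps of 14, 312, 86, 146, 32 and 24 bp, and the GGCCGC lay in the coding sequence. At least as many motifs were present in 0.272% of the JB1 ZFP57 peaks (29 of 10667) and in 2.2% of those of BJ1 (29 of 1318). A wide peak has more room for motifs. Of the 38 JB1 ZFP57 peaks of the same width, 1 had as many, which was the Nnat peak itself, whereas all 3 BJ1 ZFP57 peaks of the same width did, the Nnat peak included. Of all stretches of 1350 bp that tile chromosome 2, 12.9% held any motif, 0.132% held 7 or more and 0.786% held a cluster.

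At Nespas-Gnasxl, the ZFP57 peaks of both lines held the same 5 TGCCGC, at steps of 4, 50, 149 and 12 bp from 174121398, and no GGCCGC. This number or more was reached by 0.553% of the JB1 ZFP57 peaks (59), by 3.41% of those of BJ1 (45) and by 0.0982% of the 600 bp stretches of chromosome 2, of which 6.3% had any motif. Among ZFP57 peaks of the same width, 10 of 2074 had as many in JB1 (0.482%) and 9 of 38 in BJ1 (23.7%). The KAP1 peak of either line added 1 TGCCGC, and that of BJ1 also 1 GGCCGC. The 300 bp of the Gnasxl exon peak held 2 TGCCGC and 2 GGCCGC in a sequence of 70.3% GC. This was the densest of the sites, with 13.3 motifs per kb against 4.67 at Nnat and 5.56 at Nespas-Gnasxl over the joined peaks. At least 4 motifs were present in 1.7% of all JB1 ZFP57 peaks (181), in 3 of the 3381 of 300 bp (0.0887%) and in 0.0518% of the 300 bp stretches of chromosome 2. In BJ1, where ZFP57 was not called there, the KAP1 peak over the exon held 4 TGCCGC and 5 GGCCGC.

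The 3′ end of Gnas stood apart in its motifs. It held 1 TGCCGC and 1 GGCCGC, 188 bp apart and both on the reverse strand, and no cluster. Such a number is common in the lists, 13.8% of the ZFP57 peaks of JB1 and 24.2% of those of BJ1 having at least 2, and was found in 0.915% of the 600 bp stretches of chromosome 2. Among ZFP57 peaks of 600 bp, it was reached by 16.2% in JB1 and 39.5% in BJ1. Of the 545 JB1 ZFP57 peaks at sites of all 4 lists, 97.1% held a motif and 35.2% a cluster, with a median of 2 motifs, so that the Gnas 3′ end was at their median, and Nnat and Nespas-Gnasxl were above it. At Mcts2, the JB1 KAP1 peak held 3 TGCCGC at 152512606, 152512622 and 152512637, all on the forward strand and 278 to 247 bp before the start. At least 3 motifs were present in 9.14% of all JB1 KAP1 peaks and in 5.87% of those of 750 bp.

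**Figure D4:**
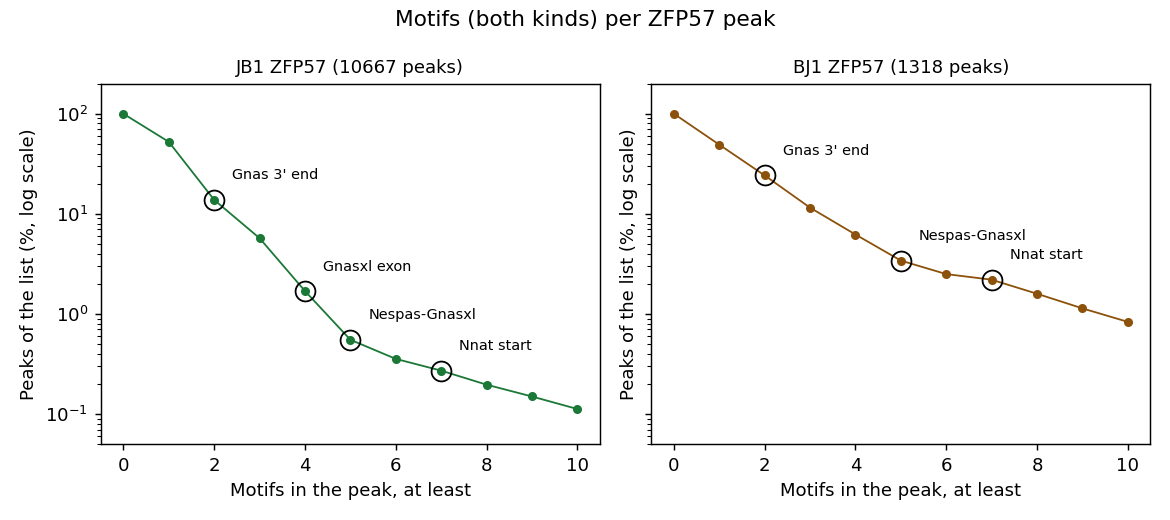
Share of the ZFP57 peaks of each line (vertical axis, percent on a log scale) that hold at least a given number of TGCCGC and GGCCGC motifs together (horizontal axis), with the peaks of the Nnat and Gnas loci circled. In both lines the Nnat start is farthest to the right with 7 motifs, at 0.272% in JB1 and 2.2% in BJ1, and the Gnas 3′ end is at 2 motifs.

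As on the rest of the chromosome, most motifs of the windows were outside the peaks. The 3 windows held 115 motifs, 34 at H13-Mcts2, 20 at Blcap-Nnat and 61 at Gnas, of which 18 were in a ZFP57 peak and 17 in KAP1 peaks only. Of the 23900 motifs of chromosome 2, 2.28% were in a ZFP57 peak and 8.23% in KAP1 peaks only. Clusters numbered 17, and 5 of them were in a ZFP57 peak, 2 of 3 at Blcap-Nnat, 3 of 11 at Gnas and 0 of 3 at H13-Mcts2. A further cluster at Mcts2 and another in the Gnasxl exon (174125724-174125765, under KAP1 of BJ1) were in KAP1 peaks only. Over chromosome 2, 3.89% of the 1285 clusters were in a ZFP57 peak and 12.3% in KAP1 peaks only. Clusters in no peak were found close to the H13-003, Blcap-003, Gnas-009, Gnas-016 and Gnas-018 starts, at 116, 127, 356, 563 and 6 bp.

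The promoters of RefSeq (GRCm38.p6, 300 bases at each start) were searched in the same way, and all 5 members were matched by symbol, Gnas with 4 promoters. TGCCGC was present in those of Mcts2 and Nnat, once in each, GGCCGC once in that of H13 and at 2 places in 1 of the Gnas promoters, and neither in that of Blcap or in the other Gnas promoters. Of all 32851 promoters, 11.6% held TGCCGC, 20% held GGCCGC and 6.3% held a cluster. None of the members' promoters held a cluster within these bases, a count too small to be read against that share.

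Other genes with known germline control regions give a scale for these counts. Of 18 such genes with maternal methylation, 17 were annotated, and 16 of them had a site of all 4 lists in their window, the exception being Zdbf2. Of 3 genes with paternal methylation, 2 had such a site and Rasgrf1 had none. Blcap, Nnat and Gnas had such a site as most of these genes did, and H13 and Mcts2 shared with Zdbf2 and Rasgrf1 the lack of a site bound in all 4 lists. Several of these genes share a control region, so the counts are not of independent regions, and the difference between H13-Mcts2 and the rest was not tested.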

How the data were processed

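The authors trimmed the reads, aligned them to mm9 with Bowtie and called the peaks of each ChIP library separately with MACS. The submitters' processing notes name CASAVA 1.8.2, Bowtie 0.12.7, SAMtools 0.1.18 and bedtools 2.14.3-1. The deposited lists hold start and end positions of peaks, counted from 1, with no score, height or P-value, so that depth is unknown. The members and gene lists were chosen with earlier results of these data known.

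Peaks overlapped if they shared at least 1 bp. Genes, exons and starts are those of GENCODE M1, and sequence is that of NCBIM37. Motifs were counted when wholly inside a peak, and 2 or more of them made a cluster if each started under 38 bp from the next. Tiles of chromosome 2 with over 10% unknown bases were left out. Named were the 5 members, transcript starts overlapped by or nearest to their peaks, all ZFP57 peaks with the KAP1 peaks over them, and the widest other KAP1 peaks. Other KAP1 peaks, genes near motif clusters, Zdbf2 and Rasgrf1 were named after their values were seen. For a stricter threshold, the peaks wider than the median width of their list were kept. Intervals are exact Clopper-Pearson 95% intervals and cover counting error only. The overlap, motif and cluster searches were tested on simulated data. Python 3.11.15, numpy 2.4.6, scipy 1.17.1 and matplotlib 3.10.9 were used.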

Additional observations from a re-analysis of the deposited data

How the results depend on the processing

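No paired analysis was possible because each line and antibody has 1 library, and for the same reason no replicate could be left out. The 3 sites bound in all 4 lists were found with an overlap of at least 50% and among the wider peaks of each list. At the 4 sites with a ZFP57 peak, the number of clusters was the same with limits of 25 and 50 bp. The cluster near exon 1A was not part of that check, and its starts, 32 bp apart, are beyond a limit of 25 bp. In all, 51 of 72 alternative values were within 1.5 times the reported count or length, or within the 95% confidence interval of the reported share, and the others follow. The number of BJ1 KAP1 peaks was 7 with 0 kb flanks, 8 with 10 kb flanks and 7 among the wider peaks. The covered length with 0 kb flanks was 4695 bp for KAP1 of JB1 and 7845 bp for KAP1 of BJ1, and for the latter 8860 bp with 10 kb flanks. The share of all genes with a peak in the window, in the order ZFP57 of JB1, ZFP57 of BJ1, KAP1 of JB1 and KAP1 of BJ1, was 17.3%, 4.18%, 47.1% and 78.8% for protein-coding genes only, and 5.21%, 1.36%, 13.5% and 27.8% with 0 kb flanks. Counted in the BJ1 KAP1 peak, the motifs were 11 at the Nnat start and 9 in the Gnasxl exon. With TGCCGC alone, they were 2 in the Gnasxl exon and 1 at the Gnas 3′ end. Among JB1 ZFP57 peaks of the same width, the share with as many motifs was 2.63% for the Nnat start, 0.0887% for the Gnasxl exon and 16.2% for the Gnas 3′ end. The unknown depth of the lists limits every statement that a peak is missing.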
